A study of Homo sapiens with 22 samples.

Results

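The empty vector libraries of an RNA-seq study of the prostate cell line RWPE1 fall into 2 sets of 3, and the gene expression that separates these sets is described here. The 6 libraries carry one and the same label, a control vector with paraquat, and differ in their labels only by the library name, CAD7 to CAD12. Libraries CAD7, CAD8 and CAD9 form the first set and CAD10, CAD11 and CAD12 the second. The division was made after the 2 sets were seen to lie apart in these values, so every difference between them is given as a description with no test. Of 49149 gene symbols in the deposited table, the 19142 with a log2 value above 3 in at least 3 of the 6 libraries were kept. All differences between the sets are the mean of CAD7-CAD9 minus the mean of CAD10-CAD12 on the deposited log2 scale, on which 1 step is a doubling.

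RWPE1 is an immortalized line of human prostate epithelium. In the NKX3.1 group, 6 libraries (CAD25 to CAD30), the cells overexpressed wild-type NKX3.1, a prostate homeobox transcription factor. In the R52C group, 6 libraries (CAD31 to CAD36), they overexpressed its R52C form, and 4 libraries titled with a T164A form complete the 22 libraries of the table. The 6 Vector libraries came from cells with an empty, altered pTRIPZ lentiviral vector. Paraquat, a herbicide that generates superoxide, is given for all 22 libraries in their titles, and for 3 of the 4 T164A libraries in no other label. No library of untreated cells was analysed here, and dose, duration, harvest day and sequencing lane were not given in the sources used here. Whether separate cultures were used is not said in the labels, so the p-values below rest on library-to-library variation that may be technical in origin.

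Stratified and prostate epithelia keep a basal layer, marked by KRT5 and TP63, whose cells attach to the underlying matrix. Cells that leave this layer along a squamous path make small proline-rich proteins, S100 proteins and wet-surface keratins, which build the cornified envelope. Immediate early genes such as EGR1 and FOS are transcribed within minutes of a growth factor signal through serum response factor, and targets of YAP such as CTGF respond to cell spreading and density through TEAD factors.

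The promoters of 4 genes on which the description turns are shown first, from 250 bases before to 50 bases after the annotated start, as RefSeq gives them on GRCh38.p14. Capitals mark, on either strand, the CArG box of serum response factor in EGR1, the letters GGAATG of TEAD factors in CTGF, which RefSeq lists as CCN2, and the letters TGANTCA of AP-1 in SPRR3 and SPRR2A. EGR1 lies at chr5:138465229-138465528 on the plus strand, CTGF at chr6:131951323-131951622 on the minus strand, SPRR3 at chr1:153001499-153001798 on the plus strand and SPRR2A at chr1:153057463-153057762 on the minus strand.
EGR1: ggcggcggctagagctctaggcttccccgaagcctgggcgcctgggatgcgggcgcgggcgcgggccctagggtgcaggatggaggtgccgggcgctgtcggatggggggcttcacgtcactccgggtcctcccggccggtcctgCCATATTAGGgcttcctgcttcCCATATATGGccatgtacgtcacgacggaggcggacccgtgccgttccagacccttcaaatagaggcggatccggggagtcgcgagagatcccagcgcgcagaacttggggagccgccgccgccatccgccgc
CTGF: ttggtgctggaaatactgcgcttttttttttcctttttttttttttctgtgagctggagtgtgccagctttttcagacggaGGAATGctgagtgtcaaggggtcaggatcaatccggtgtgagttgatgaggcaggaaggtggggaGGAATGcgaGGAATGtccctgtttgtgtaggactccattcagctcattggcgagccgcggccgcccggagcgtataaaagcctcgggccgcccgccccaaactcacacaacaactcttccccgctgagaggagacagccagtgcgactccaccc
SPRR3: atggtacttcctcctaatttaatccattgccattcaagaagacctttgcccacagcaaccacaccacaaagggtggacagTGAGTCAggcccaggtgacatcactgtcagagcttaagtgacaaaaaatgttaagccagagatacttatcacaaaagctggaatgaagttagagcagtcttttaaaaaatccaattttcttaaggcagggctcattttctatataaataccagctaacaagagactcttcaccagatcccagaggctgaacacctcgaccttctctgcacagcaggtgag
SPRR2A: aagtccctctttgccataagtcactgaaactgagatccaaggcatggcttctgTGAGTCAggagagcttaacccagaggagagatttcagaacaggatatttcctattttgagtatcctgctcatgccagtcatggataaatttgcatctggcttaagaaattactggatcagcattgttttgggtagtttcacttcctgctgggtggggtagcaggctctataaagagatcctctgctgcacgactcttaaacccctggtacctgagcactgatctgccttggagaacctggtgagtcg
The EGR1 window held 2 CArG boxes, the CTGF window 3 GGAATG matches and each SPRR window 1 AP-1 match. Over 27305 genes with a promoter entry, 1.60% held a CArG box, 16.7% GGAATG and 9.37% TGANTCA. Of the immediate early genes listed below 22 of 29 had an entry and 2 of these held a CArG box. Of the YAP targets 7 of 11 had an entry and 5 held GGAATG, and of the squamous differentiation genes 19 of 25 had an entry and 9 held TGANTCA. Matches of different motifs may overlap, and a match is a stretch of letters, not a measured binding site.

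The Vector libraries carried markers of basal epithelium. KRT5 lay between 16.73 and 17.09 and TP63 between 12.28 and 12.58 over the 6 libraries. The luminal marker KLK3, which encodes prostate-specific antigen, lay between 12.14 and 13.32. With the R52C profile described below taken off each Vector library, 8 in place of 21 luminal genes were above the floor of 3. Of other cell types, CHGA for neuroendocrine cells, PDGFRA and DCN for fibroblasts, CDH5 for endothelium, and PTPRC and CD3E for immune cells reached at most 3.48, and of 10 neuroendocrine, 11 fibroblast and endothelial and 11 immune markers 3 in each list were above the floor. These were SYP, ENO2 and SCG2 of the neuroendocrine list, with highest values of 5.36, 9.77 and 3.90, COL1A1, ACTA2 and VWF of the fibroblast and endothelial list, with 10.91, 4.27 and 5.47, and CD14, CD68 and CSF1R of the immune list, with 6.59, 9.13 and 7.82. The summed level of the fibroblast and endothelial list, on the log2 scale, was 10.87 to 10.95 in CAD7-CAD9, against 10.40 to 10.64 in CAD10-CAD12, and most of it was COL1A1. That of the neuroendocrine list was 9.73 to 9.86, against at most 9.74, and that of the immune list 9.64 to 9.67, against 9.61 to 9.76. In RNA from whole cultures, fewer cells of a type and less RNA per cell cannot be told apart.

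The 2 sets differed in several measures of the whole library. Summed on the linear scale, the deposited values came to between 19895400 and 20152500 in CAD7-CAD9 and between 20569400 and 21506500 in CAD10-CAD12. Between 19242 and 19338 genes were above a value of 3 in CAD7-CAD9, against 18612 to 18846 in CAD10-CAD12. Ribosomal protein mRNAs held 1.37% of the summed signal in each of the libraries CAD7, CAD8 and CAD9, against 1.47% to 1.57% in CAD10-CAD12. The share of mtDNA-encoded mRNA overlapped, at 15.03% to 15.7% in CAD7-CAD9 and 15.1% to 16.9% in CAD10-CAD12. Depth in reads is unknown, because the table holds log2 values only.

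**Figure D1:**
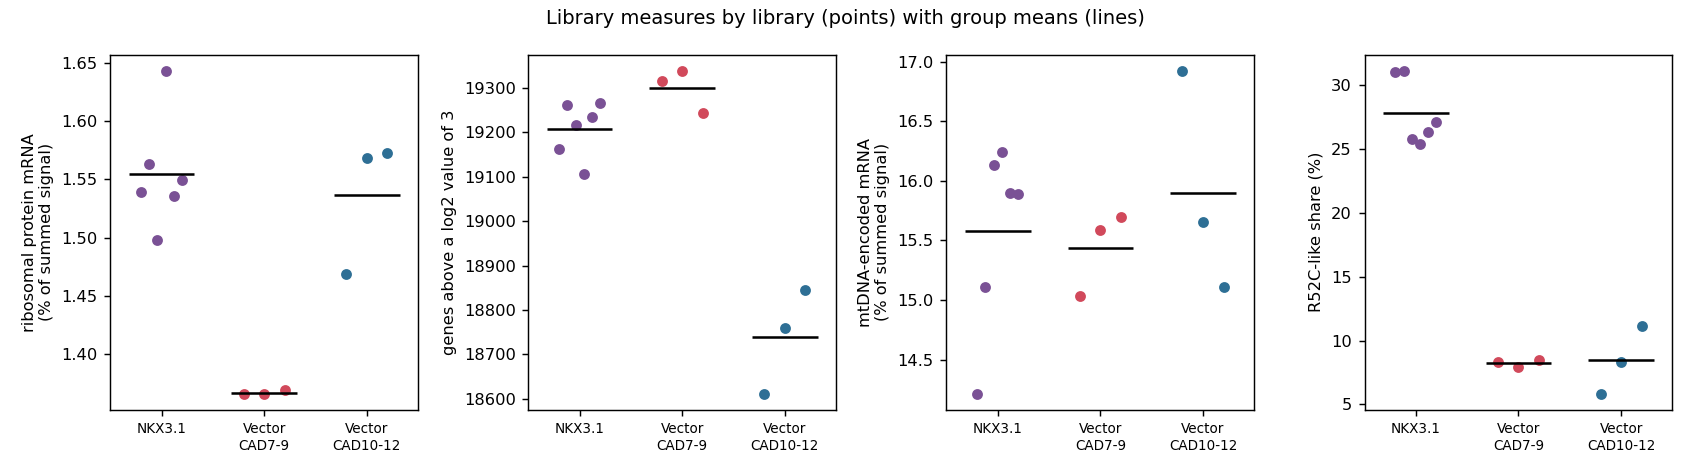
Ribosomal protein mRNA and mtDNA-encoded mRNA as percent of the summed linear signal, number of genes above a log2 value of 3, and R52C-like share in percent, for each NKX3.1, Vector CAD7-CAD9 and Vector CAD10-CAD12 library (points) with the group mean (lines). CAD7-CAD9 stand below CAD10-CAD12 in ribosomal protein mRNA and above them in genes above 3, and overlap them in the other measures.

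Genes high in R52C and low in T164A were present in the Vector libraries at a fraction of their R52C level. This fraction is called the R52C-like share, and its source was not tested. The share was estimated from 91 genes that averaged 8 or more in R52C but less than 3 in T164A, as the most frequent ratio of a library to R52C on the linear scale. It was 8.30%, 7.95% and 8.50% in CAD7, CAD8 and CAD9 and 5.85%, 8.35% and 11.15% in CAD10, CAD11 and CAD12. The sets overlapped, and their means differed by -0.20 percentage points. This value rests on single libraries: it was -1.5 without CAD10 and 1.15 without CAD12, and -0.05 without CAD8. With the R52C profile taken off each Vector library in its share, 7135 of 18768 genes stood apart between the sets.

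Between the sets, 7031 of 19142 genes (36.7%) did not overlap, meaning that all 3 libraries of one set lay above all 3 of the other. Of these, 2898 (15.1%) were higher and 4133 (21.6%) lower in CAD7-CAD9. As the sets were chosen on these values, the count is a description and nothing is read from it. The balance between the directions depends on scaling: once library medians were set equal, 3426 genes were higher and 3206 lower, and after quantile normalization 3299 and 3282. The median difference over all genes was -0.03. Most differences were small: the median size of a difference was 0.15, and 0.11 among the 9571 genes above the median level. A difference of at least 1 without overlap was found in 203 genes (1.06%) higher and 40 (0.209%) lower in CAD7-CAD9, of which 1 and 3 were above the median level. The excess of higher genes depends on scaling and floor: after quantile normalization 98 were higher and 85 lower by at least 1, and with a floor of 5 the counts were 35 and 22. Of the genes that only just passed the floor, 570 with a value above 3 in exactly 3 libraries had a median level of 2.90, beside 2.66 for the 721 genes above 3 in exactly 2 libraries, which were left out. Their median difference in size was 0.52, beside 0.51.

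The balance of directions also went with expression level on the deposited scale. Of genes with a mean between 4 and 6, 6.62% were lower in CAD7-CAD9 without overlap, and between 6 and 8 it was 15.9%. The share lower was 28.2% between 8 and 10, 38.2% between 10 and 12 and 51.6% above 12. The share higher lay between 13.7% and 16.7% in all 5 of these ranges.

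Libraries within a set were closer to each other than to the other set. As the sets were chosen for lying apart in these values, this follows from the choice and is a description only. For genes with a mean between 8 and 10, the median SD was 0.062 within CAD7-CAD9, 0.083 within CAD10-CAD12 and 0.11 over all 6 Vector libraries, beside 0.076 over the 6 NKX3.1 and 0.069 over the 6 R52C libraries. Above a mean of 12 the 3 libraries CAD7-CAD9 had a median SD of 0.022, against 0.054 in CAD10-CAD12. The first principal component over the genes kept held 36.2% of the variance and placed CAD7, CAD8 and CAD9 at 0.43, 0.42 and 0.36, against -0.47, -0.43 and -0.32 for CAD10, CAD11 and CAD12. The second held 20.2%.

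The other groups of 6 libraries, divided at the same place in their numbering, showed smaller differences. Those divisions followed the numbering, while the Vector sets were chosen for lying apart, so the contrast is a description. Among the NKX3.1 libraries, 2793 of 19291 genes (14.5%) did not overlap between CAD25-CAD27 and CAD28-CAD30, 6.10% higher and 8.38% lower in CAD25-CAD27, and the median size of a difference was 0.076. Among the R52C libraries, 3005 of 18055 genes (16.6%) did not overlap between CAD31-CAD33 and CAD34-CAD36, 7.23% higher and 9.41% lower in CAD31-CAD33, and the median size was 0.066. Limma, with Benjamini-Hochberg adjustment over 19291 genes, called 23 genes (0.119%) between CAD25-CAD27 and CAD28-CAD30, 11 (0.0570%) higher and 12 (0.0622%) lower in CAD25-CAD27, and 2031 genes had an unadjusted p under 0.05. That count rests on single libraries: without CAD27 it was 309, without CAD29 it was 7, without CAD25 it was 8 and without CAD30 it was 11. No gene above the median level stood apart by 0.5 or more in this division of NKX3.1, where 52 were higher and 64 lower by that much between the Vector sets.

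**Figure D2:**
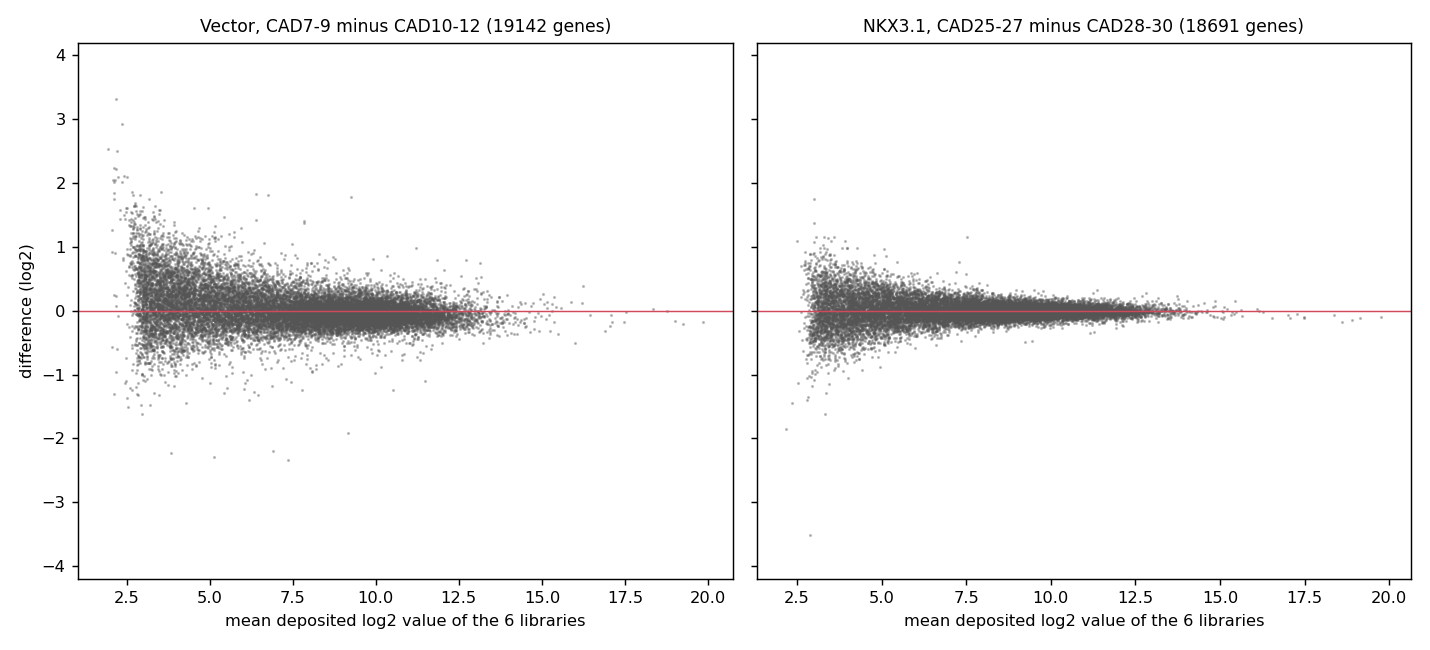
Difference between the means of 3 and 3 libraries (vertical axis, log2) against the mean deposited log2 value of the 6 libraries (horizontal axis), 1 point per gene, for Vector (left) and NKX3.1 (right, the 18691 of the genes that were also kept there). The Vector points spread more widely: over all genes kept in each group the median size of a difference was 0.15 in Vector and 0.076 in NKX3.1.

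Squamous differentiation genes were the list with the most members higher in CAD7-CAD9. Of 25 members above the floor 16 were higher and 6 lower, with a median difference of 0.21, beside 15.1% and 21.6% of all genes and a median of -0.03. SPRR3, a small proline-rich protein of the cornified envelope of wet epithelia, had 10.12, 10.22 and 10.07 in CAD7, CAD8 and CAD9, against 8.55, 8.15 and 8.35 in CAD10, CAD11 and CAD12. That is 3.45 times as much on the linear scale, and the gap between the sets was several times the spread within either. SPRR2A had 7.63, 7.64 and 7.75 in CAD7-CAD9, against 6.04, 5.68 and 5.84 in CAD10-CAD12. CRNN, which encodes the squamous protein cornulin, had 8.50, 8.49 and 8.59 in CAD7-CAD9, against 7.07, 7.08 and 7.21 in CAD10-CAD12. None of the 3 genes overlapped between the sets, with differences of 1.79, 1.82 and 1.41.

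The keratins of an activated squamous epithelium went the same way for KRT6B and KRT6C. KRT6B had 10.80, 10.76 and 10.79 in CAD7-CAD9, against 9.95, 9.93 and 9.88 in CAD10-CAD12. KRT6C differed by 0.84, but KRT6A, KRT6B and KRT6C are near-identical copies and reads may be split among them. The antimicrobial calcium-binding proteins S100A8 and S100A9 differed by 0.80 and 0.75. S100A8 had 13.08, 13.14 and 13.12 in CAD7-CAD9, against 12.30, 12.33 and 12.31 in CAD10-CAD12, so each set was tight. PI3, the elastase inhibitor elafin, which is cross-linked into the cornified envelope, had 11.72, 11.67 and 11.72 in CAD7-CAD9, against 10.78, 10.75 and 10.65 in CAD10-CAD12. SERPINB3, a squamous serpin, differed by 0.89, SPRR1A by 0.82 and TCHH, which encodes trichohyalin, by 0.81.

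The list did not move as a block. The suprabasal keratins KRT1 and KRT10 had means of 14.11 and 15.08 in CAD7-CAD9, against 14.28 and 15.40 in CAD10-CAD12, and KRT4 had 11.87, against 12.09. TGM1, the transglutaminase that cross-links the envelope, had 11.42 in CAD7-CAD9, against 11.79 in CAD10-CAD12, while IVL, which encodes involucrin, had 10.83, against 10.24. KRT6A had 15.44, against 15.39.

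The remaining genes among the 15 with the largest positive differences above the median level share no list. IFNE, an epithelial type I interferon, had 8.91, 8.83 and 8.85 in CAD7-CAD9, against 8.12, 7.99 and 8.07 in CAD10-CAD12. CAMK2A, a calcium and calmodulin-dependent kinase best known from neurons, differed by 0.69, REC8, a meiotic cohesin subunit, by 0.67, SLC23A3, a member of the ascorbate transporter family, by 0.76 and C11orf35 by 0.75. RN7SL1, the RNA of the signal recognition particle, had 12.24, 12.35 and 12.17 in CAD7-CAD9, against 11.10, 11.65 and 11.61 in CAD10-CAD12. It has no poly-A tail and has near-identical copies among which reads may be split. Of 7 RNAs without a poly-A tail above the floor 3 were higher and none lower in CAD7-CAD9, beside 15.1% of all genes higher.

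**Figure D3:**
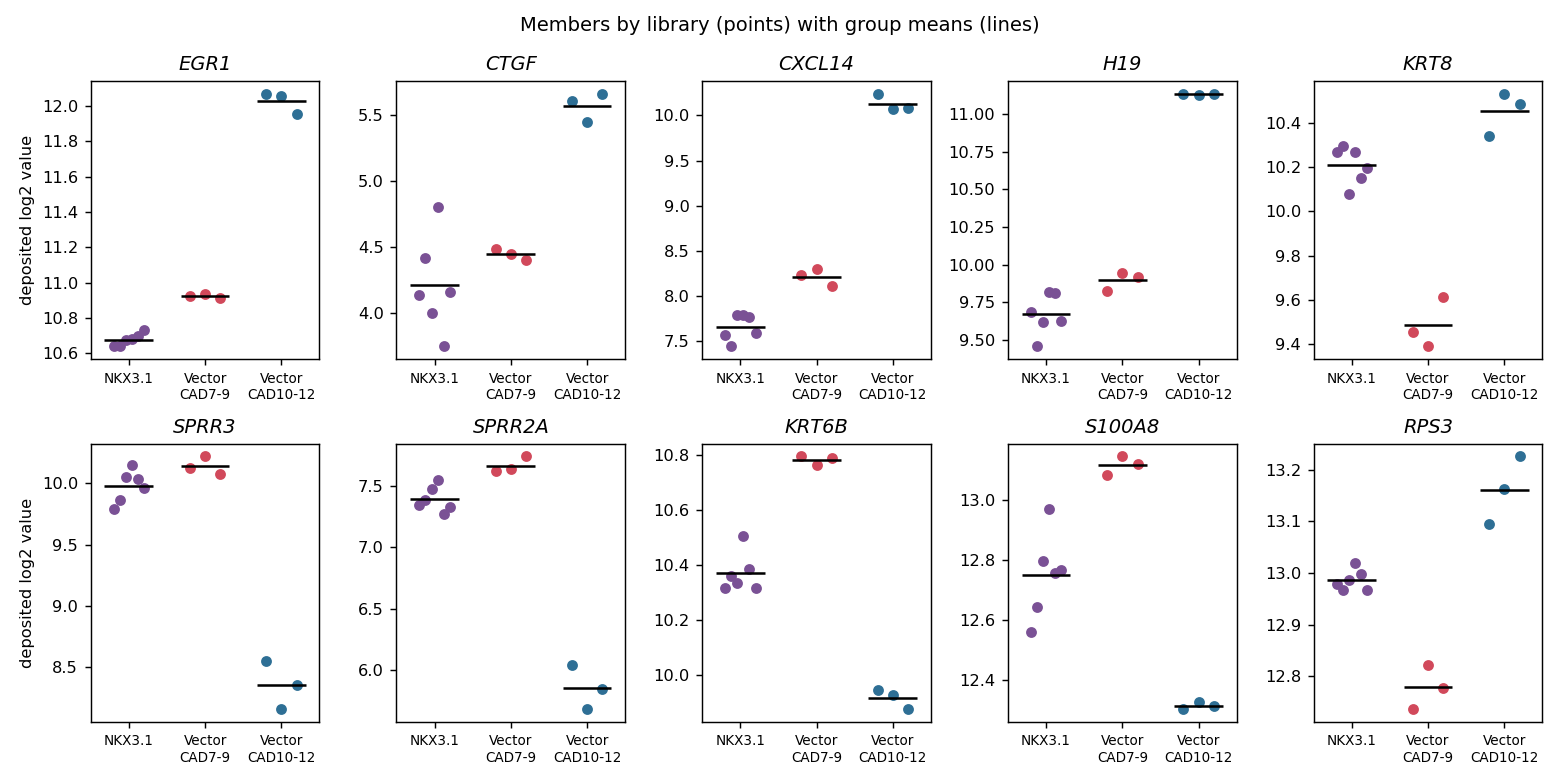
Deposited log2 values of 10 genes (vertical axes, each with its own range) in the 6 NKX3.1, 3 Vector CAD7-CAD9 and 3 Vector CAD10-CAD12 libraries (points), with group means (lines). EGR1, CTGF, CXCL14 and H19 stand near 10.7, 4.2, 7.7 and 9.7 in NKX3.1, close to CAD7-CAD9 and below CAD10-CAD12, and SPRR3, SPRR2A, KRT6B and S100A8 are above CAD10-CAD12 in both other groups.

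Immediate early genes were lower in CAD7-CAD9. Of 29 members above the floor 19 were lower and 2 higher, with a median difference of -0.31, beside 21.6% of all genes lower. EGR1, a zinc finger transcription factor, had 10.93, 10.94 and 10.91 in CAD7, CAD8 and CAD9, against 12.07, 12.06 and 11.96 in CAD10, CAD11 and CAD12. FOS, a subunit of AP-1, had 9.16, 9.16 and 9.10 in CAD7-CAD9, against 10.01, 9.85 and 9.83 in CAD10-CAD12. The sets did not overlap in either gene, and the differences of -1.10 and -0.76 were many times the spread within a set. EGR3 differed by -0.89 and FOSB by -0.78. EGR2 differed by -1.32, though its 3 values in CAD7-CAD9 lay below the floor, at 1.83, 2.32 and 2.41, against 3.46, 3.62 and 3.44 in CAD10-CAD12.

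Each of the 11 YAP targets above the floor was lower in CAD7-CAD9, with a median difference of -0.27, beside 21.6% of all genes lower. CTGF, a secreted matrix-associated protein, had 4.49, 4.45 and 4.40 in CAD7-CAD9, against 5.60, 5.45 and 5.66 in CAD10-CAD12. The receptor kinase AXL had 9.09, 9.03 and 9.06 in CAD7-CAD9, against 9.75, 9.68 and 9.58 in CAD10-CAD12, and AMOTL2, which binds YAP and holds it outside the nucleus, had 11.36, 11.42 and 11.45, against 11.94, 11.97 and 11.93. CRIM1 differed by -0.45. CTGF also stands in the list of TGF-beta responses, of which 10 of 17 were lower and 3 higher, with a median of -0.18. The inhibitory SMADs SMAD7 and SMAD6 differed by -0.34 and -0.32.

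Basal epithelium and extracellular matrix genes were lower as well. Of 20 basal markers 15 were lower and 1 was higher, with a median of -0.22. Beside this stand 21.6% of all genes lower, and 51.6% of those with a mean above 12, as most of these markers had. EGFR, the epidermal growth factor receptor, had 12.98, 12.95 and 13.01 in CAD7-CAD9, against 13.58, 13.48 and 13.41 in CAD10-CAD12. COL17A1, a collagen of the hemidesmosome, had 13.77, 13.76 and 13.78 in CAD7-CAD9, against 14.18, 14.16 and 14.11 in CAD10-CAD12. CAV1, the coat protein of caveolae, differed by -0.62 and KRT17 by -0.33, and KRT5 had a mean of 16.74, against 17.06. The basal markers did not all go one way: the integrin chain ITGA2 had a mean of 10.37 in CAD7-CAD9, against 10.26 in CAD10-CAD12. The desmosomal cadherin DSC3 had 13.40, against 13.27, with overlapping libraries.

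Of 29 mesenchymal and matrix genes above the floor 14 were lower and 3 higher, with a median of -0.28, beside 21.6% of all genes lower. SPARC, a matrix glycoprotein, had 6.71, 6.74 and 6.38 in CAD7-CAD9, against 7.60, 7.31 and 7.32 in CAD10-CAD12, and VIM, the intermediate filament vimentin, had 7.09, 7.26 and 7.27, against 7.96, 7.80 and 7.96. COL8A1 differed by -0.91. Among the 3 higher were COL1A1, with 10.86, 10.91 and 10.82 in CAD7-CAD9 against 10.35, 10.60 and 10.47 in CAD10-CAD12, and the collagenase MMP1, which lay near the floor at 3.84, 3.79 and 3.59, against 2.41, 2.88 and 3.32.

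Among the 15 genes with the largest negative differences above the median level were several secreted proteins. CXCL14, an epithelial chemokine, had 8.24, 8.30 and 8.11 in CAD7-CAD9, against 10.24, 10.07 and 10.08 in CAD10-CAD12, which is 3.77 times as much in CAD10-CAD12. The imprinted long RNA H19 had 9.83, 9.95 and 9.92 in CAD7-CAD9, against 11.14, 11.13 and 11.14 in CAD10-CAD12. The proteoglycan BGN differed by -0.88, and DKK3 and SFRP1, both secreted proteins related to WNT inhibitors, by -0.78 and -0.83. The secreted protease HTRA1 differed by -0.77 and the transcription factor CEBPD by -0.83. CYP1A1, the aryl hydrocarbon receptor target that oxidizes polycyclic compounds, had 8.26, 8.52 and 8.49 in CAD7-CAD9, against 9.32, 9.33 and 9.23 in CAD10-CAD12. ASS1, the argininosuccinate synthase of arginine synthesis, differed by -0.76 and its pseudogene ASS1P11 by -0.86, and reads of the gene and its copy cannot be told apart with certainty.

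The simple-epithelium keratins were lower too. KRT8 had 9.45, 9.39 and 9.61 in CAD7-CAD9, against 10.34, 10.53 and 10.49 in CAD10-CAD12, and its pseudogene KRT8P3 differed by -0.95. KRT18, its partner, differed by -0.47 and KRT19 by -0.40. KRT8 was also abundant in R52C, with a mean of 11.60. With the R52C profile taken off each Vector library, all 159 named genes that stood apart between the sets, KRT8 among them, still did. The part of the R52C-like share in the size of the KRT8 difference was not tested. Of 21 luminal and androgen-regulated genes above the floor 4 were lower and 1 was higher, with a median of -0.03. That share lower is near the 21.6% of all genes, so nothing is read from it. The 4 lower genes were the 3 keratins and FKBP5, a glucocorticoid and androgen target, which differed by -0.64. In the deposited values KLK3 had means of 12.78 in CAD7-CAD9 and 12.79 in CAD10-CAD12. With the R52C profile taken off, 8 luminal genes were above the floor, 4 lower and 1 higher, with a median of -0.52.

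**Figure D4:**
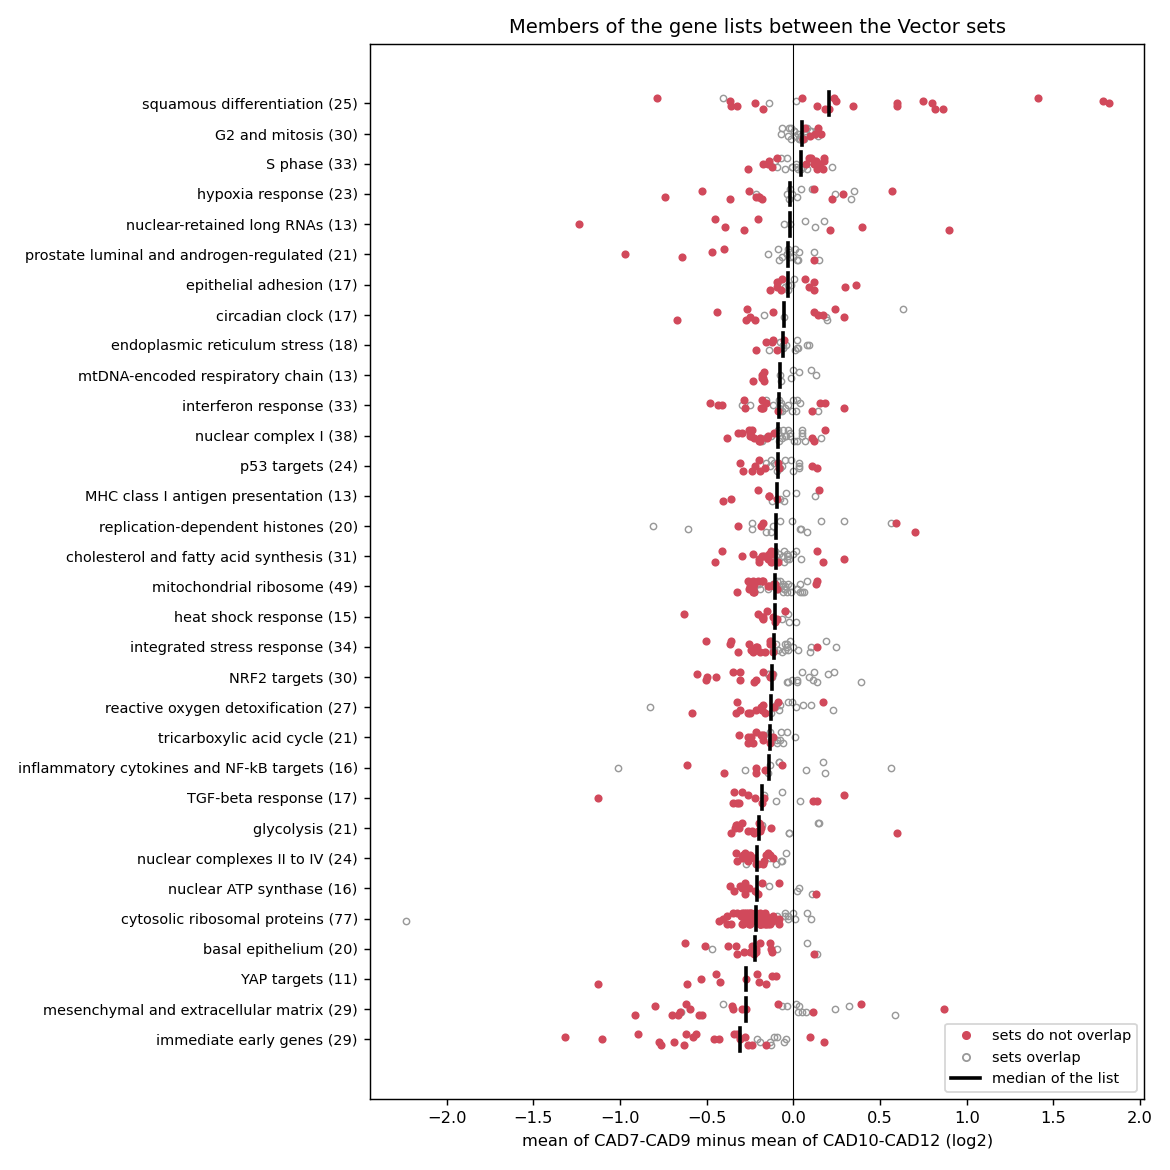
Difference between the means of CAD7-CAD9 and CAD10-CAD12 (horizontal axis, log2) for each member above the floor of each gene list with at least 10 such members (number in parentheses). Filled points are genes whose sets do not overlap, open points genes whose sets overlap, and black bars list medians, which run between 0.21 for squamous differentiation and -0.31 for immediate early genes.

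The machinery of protein synthesis and energy metabolism was lower by small amounts in many genes at once. Of 77 cytosolic ribosomal protein genes 65 were lower and none higher in CAD7-CAD9, with a median of -0.22. Beside this stand 21.6% of all genes lower, and 51.6% of those with a mean above 12. RPS3, of the small ribosomal subunit, had 12.74, 12.82 and 12.78 in CAD7-CAD9, against 13.10, 13.16 and 13.23 in CAD10-CAD12. RPL8 had 13.16, 13.21 and 13.21 in CAD7-CAD9, against 13.56, 13.66 and 13.65 in CAD10-CAD12. With libraries shifted to the same median 64 of the 77 were lower, and after quantile normalization 58 were lower and 1 was higher. Processed pseudogenes of ribosomal proteins, which share sequence with the genes, went along: of 151 above the floor, 48.3% were lower and 5.96% higher.

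Nuclear genes of the respiratory chain were lower in the same range. Of 24 genes of complexes II to IV 18 were lower and none higher, with a median of -0.21, and of 16 genes of ATP synthase 11 were lower and 1 was higher. UQCRC1, a core protein of complex III, had 10.39, 10.32 and 10.41 in CAD7-CAD9, against 10.58, 10.79 and 10.74 in CAD10-CAD12. Complex I had 15 lower (39.5%) and 3 higher of 38, and the mitochondrial ribosome 21 lower (42.9%) and 2 higher of 49. The tricarboxylic acid cycle had 11 lower (52.4%) and none higher of 21. Beside these stand 21.6% of all genes lower, 28.2% with a mean between 8 and 10 and 38.2% between 10 and 12. Nothing is read from counts near these shares. Of the 13 mtDNA-encoded genes 6 were lower (46.2%) and none higher, with a median of -0.08. All 13 had means above 12, where 51.6% of genes were lower. MT-ND1 had 16.92, 16.95 and 16.95 in CAD7-CAD9, against 17.30, 17.16 and 17.06 in CAD10-CAD12, while MT-CO2 overlapped, at 18.72, 18.78 and 18.81 in CAD7-CAD9 and 18.83, 18.79 and 18.70 in CAD10-CAD12. Of 21 glycolysis genes 15 were lower and 1 was higher. GAPDH had 13.22, 13.27 and 13.28 in CAD7-CAD9, against 13.57, 13.67 and 13.60 in CAD10-CAD12. The exception was PFKFB4, which sets the level of a glycolytic activator, at 10.02 ± 0.016 in CAD7-CAD9, against 9.42 ± 0.11 in CAD10-CAD12 (SD, n = 3 each). The share of ribosomal protein mRNA, the summed signal and the number of genes above 3 differed between the sets along with these lists, and their part in the result was not tested.

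Some of the genes that respond to oxidants, the stress that paraquat is used to cause, were lower in CAD7-CAD9, where 21.6% of all genes were lower, and 28.2% to 38.2% of those with a mean between 8 and 12. Of 30 NRF2 targets 13 were lower and none higher, with a median of -0.13, and of 27 genes of reactive oxygen detoxification 13 were lower and 1 was higher. The iron storage subunits FTH1 and FTL differed by -0.56 and -0.44, although FTH1 has many processed copies. HMOX1, heme oxygenase, had 6.04, 5.64 and 6.27 in CAD7-CAD9, against 6.52, 6.61 and 6.33 in CAD10-CAD12, so the sets were close to touching. GCLC, the first enzyme of glutathione synthesis, had 10.68, 10.65 and 10.69 in CAD7-CAD9, against 11.21, 11.15 and 11.16 in CAD10-CAD12. GPX1 differed by -0.33 and TXNRD1 by -0.31. Among other stress lists, the heat shock response had 10 lower and none higher of 15, led by CRYAB with -0.63. The integrated stress response had 15 lower and 1 higher of 34, and DDIT4 differed by -0.37. Of 24 p53 targets 9 were lower and 2 higher.

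Proliferation genes had positive medians, and their differences were small. Of 33 S phase genes 11 were higher and 6 lower, with a median of 0.04, and of 30 G2 and mitosis genes 6 were higher and none lower, with a median of 0.05. Of all genes 15.1% were higher and 21.6% lower, and 28.2% to 38.2% of those with a mean between 8 and 12 were lower. Nothing is read from counts near these shares. The count of higher mitosis genes depends on scaling: it was 11 with library medians set equal and 15 after quantile normalization. PTTG1, the securin of mitosis, differed by 0.16 and MCM2, a subunit of the replicative helicase, by -0.26. Interferon response genes had 4 higher and 11 lower of 33, with IFITM3 at -0.48. The clock genes went both ways, 5 higher and 7 lower of 17: PER1 had 10.51, 10.53 and 10.47 in CAD7-CAD9, against 11.09, 11.28 and 11.15 in CAD10-CAD12, while PER2 differed by 0.29. In all, 33 of 39 lists had a median below 0, 28 with libraries shifted to the same median and 27 after quantile normalization.

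Classes of transcript differed in direction. Gene types were taken from GENCODE 29 by symbol, which matched 15710 of the genes (82.1%). Of 13410 protein-coding genes 14.5% were higher and 24.8% lower, with a median of -0.04. Of 316 antisense genes 23.1% were higher and 5.70% lower, with a median of 0.18, and of 186 lincRNA genes 25.3% were higher and 6.99% lower. Of 166 transcribed unprocessed pseudogenes 31.9% were higher and 3.01% lower. Among genes with a mean over 6 the pattern held for antisense genes, 36.7% higher and 11.1% lower of 90, and for lincRNA genes, 38.2% higher and 8.82% lower of 68. Whether counting used strand is not given in the sources used here, so reads of antisense genes and of their sense partners cannot be told apart.

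NKX3.1 was compared with each Vector set in turn. Both comparisons share the same 6 NKX3.1 libraries, and because the sets were chosen for lying apart, the spread within them and the p-values are too small. Limma was fitted to all 22 libraries with Benjamini-Hochberg adjustment over 21562 genes. Against CAD7-CAD9 it called 8316 genes (38.6%), 4693 (21.8%) higher and 3623 (16.8%) lower in NKX3.1. Against CAD10-CAD12 it called 8793 (40.8%), 4492 (20.8%) higher and 4301 (19.9%) lower. With libraries shifted to the same median the split was 3497 higher and 5922 lower against CAD7-CAD9, and 3496 higher and 6011 lower against CAD10-CAD12. The NKX3.1 libraries held an R52C-like share of 25.4% to 31.15%, above the 7.95% to 8.50% of CAD7-CAD9 and the 5.85% to 11.15% of CAD10-CAD12. An alternative chosen after seeing the data took the R52C profile off each NKX3.1 and Vector library in its share and fitted the compared groups alone. Fitted alone without this step, the groups gave 9548 calls (44.3%) against CAD7-CAD9 and 9014 (41.8%) against CAD10-CAD12. After it, limma called 768 of 19618 genes (3.91%) against CAD7-CAD9, 266 (1.36%) higher and 502 (2.56%) lower, and 4414 of 19422 (22.7%) against CAD10-CAD12, 1057 (5.44%) higher and 3357 (17.3%) lower. R52C is itself a form of NKX3.1, so the step also takes off any expression that the NKX3.1 and R52C groups have in common. The cause of the fall in calls was not tested.

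Early response and matrix genes lay near CAD7-CAD9 in NKX3.1. EGR1 ran between 10.64 and 10.73 over the 6 NKX3.1 libraries, with a log2 fold change of -0.25 ± 0.090 (SE, limma adjusted p = 0.0317) against CAD7-CAD9 and of -1.35 ± 0.090 (limma adjusted p = 1.088e-11) against CAD10-CAD12. All 6 NKX3.1 libraries were below both sets. With the R52C profile taken off, the values were 0.09 (limma adjusted p = 0.160) and -1.02 (limma adjusted p = 1.636e-09). H19 ran between 9.46 and 9.82 in NKX3.1, with -0.23 ± 0.22 (limma adjusted p = 0.444) against CAD7-CAD9 and -1.46 ± 0.22 (limma adjusted p = 4.9e-06) against CAD10-CAD12. CXCL14 ran between 7.44 and 7.79, with -0.56 ± 0.38 (limma adjusted p = 0.273) and -2.47 ± 0.38 (limma adjusted p = 8.592e-06). CTGF ran between 3.75 and 4.80, with -0.23 ± 0.38 (limma adjusted p = 0.671) and -1.36 ± 0.38 (limma adjusted p = 0.00497). Each of these NKX3.1 ranges lay below CAD10-CAD12, and those of H19 and CXCL14 also below all of CAD7-CAD9, while CTGF overlapped CAD7-CAD9. The standard errors of these 3 genes include the spread in R52C, where H19, CXCL14 and CTGF had means of 2.66, 0.0062 and 0.16. In a fit of the compared groups alone, CXCL14 differed from CAD7-CAD9 with an SE of 0.082 (limma adjusted p = 2.91e-06) and H19 with an SE of 0.059 (limma adjusted p = 0.00246). FOS differed by -0.38 against CAD7-CAD9 (limma adjusted p = 0.0234) and -1.14 against CAD10-CAD12 (limma adjusted p = 1.148e-07), SPARC by -0.10 (limma adjusted p = 0.757) and -0.90 (limma adjusted p = 0.00175).

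Whole lists gave different counts with the 2 controls. Of 29 immediate early genes 3 were higher and 16 lower against CAD7-CAD9, and 2 higher and 21 lower against CAD10-CAD12, beside 21.8% higher and 16.8% lower of all genes against CAD7-CAD9 and 20.8% and 19.9% against CAD10-CAD12. Of 11 YAP targets 1 was higher and 7 lower against CAD7-CAD9, and none higher and 10 lower against CAD10-CAD12. Without the R52C profile, none of the immediate early genes was higher and 4 were lower against CAD7-CAD9, beside 18 lower against CAD10-CAD12, and none of the YAP targets was called against CAD7-CAD9, beside 9 lower against CAD10-CAD12, where 17.3% of all genes were lower. Among the 64 genes above the median level that were lower by at least 0.5 in CAD7-CAD9 without overlap, the NKX3.1 mean was nearer to CAD7-CAD9 in 59 (92.2%). Among the 52 higher by as much it was nearer in 16 (30.8%), and over all 9571 genes above the median level in 4924 (51.4%). These genes were picked by the difference between the sets, and a gene below both sets in NKX3.1 counts as nearer to the lower set. AMOTL2 (11.02 to 11.11) and PER1 (10.12 to 10.23) lay below both sets in NKX3.1. Nothing is read from these counts about a likeness of NKX3.1 to CAD7-CAD9.

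The squamous genes with the largest differences between the sets, all higher in CAD7-CAD9, lay near CAD7-CAD9 or between the sets in NKX3.1. This does not hold for the whole list, whose counts are given below. SPRR3 ran between 9.79 and 10.15, with -0.16 ± 0.44 (limma adjusted p = 0.808) against CAD7-CAD9 and 1.62 ± 0.44 (limma adjusted p = 0.00440) against CAD10-CAD12. SPRR2A ran between 7.28 and 7.55, with -0.28 ± 0.51 (limma adjusted p = 0.717) and 1.54 ± 0.51 (limma adjusted p = 0.0179). CRNN differed by -0.09 (limma adjusted p = 0.859) and 1.32 (limma adjusted p = 0.00299). KRT6B ran between 10.32 and 10.51, below CAD7-CAD9 and above CAD10-CAD12, with -0.41 ± 0.17 (limma adjusted p = 0.0585) and 0.45 ± 0.17 (limma adjusted p = 0.0350). The standard errors of these genes include the spread in R52C, where SPRR3 and CRNN lay below the floor, at means of 0.68 and -0.25. In a fit of the compared groups alone KRT6B had an SE of 0.041 against CAD7-CAD9 (limma adjusted p = 5.217e-09). Of 25 squamous genes 2 were higher and 1 was lower against CAD7-CAD9 in the fit of all libraries, and 2 higher and 19 lower in the fit of the compared groups alone, in which 4741 of all genes were higher and 4807 (22.3%) lower. Against CAD10-CAD12 the counts were 5 higher and 3 lower in the fit of all libraries, and 10 and 10 in the other, in which 4294 of all genes (19.9%) were higher and 4720 (21.9%) lower. After the R52C profile was taken off, 3 were higher and none lower against CAD7-CAD9, and 14 higher and 4 lower against CAD10-CAD12.

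Ribosomal protein genes were mostly higher in NKX3.1 against CAD7-CAD9 and more often lower than higher against CAD10-CAD12, where quantile normalization turned the balance. Against CAD7-CAD9, 47 of 77 were higher and 9 lower in NKX3.1, with a median of 0.16. Against CAD10-CAD12, 12 were higher and 29 lower, with a median of -0.06, which became 0.01 after quantile normalization with 22 higher and 19 lower. Once library medians were set equal, 28 were higher and 13 lower against CAD7-CAD9, and 9 higher and 42 lower against CAD10-CAD12. RPS3 ran between 12.97 and 13.02 in NKX3.1, above all of CAD7-CAD9 and below all of CAD10-CAD12, with 0.21 ± 0.030 (limma adjusted p = 4.106e-06) and -0.17 ± 0.030 (limma adjusted p = 3.738e-05). RPL8 differed by 0.19 (limma adjusted p = 0.000373) and -0.24 (limma adjusted p = 1.376e-05). The ferritin light chain FTL differed by 0.23 (limma adjusted p = 0.000205) and -0.22 (limma adjusted p = 0.000378). R52C, with a mean of 13.32 for RPS3, was above all 3 groups, and with its profile taken off none of the 77 was higher and 1 was lower against CAD7-CAD9, beside none higher and 59 lower against CAD10-CAD12.

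Nuclear genes of complexes II to IV went the same way, with 16 of 24 higher and none lower against CAD7-CAD9, and 5 higher and 6 lower against CAD10-CAD12. Once the R52C profile was taken off, none was called against CAD7-CAD9, beside none higher and 13 lower against CAD10-CAD12. GAPDH differed by 0.36 (limma adjusted p = 1.195e-10) against CAD7-CAD9 and by -0.0014 (limma adjusted p = 0.977) against CAD10-CAD12, and with the profile taken off by -0.11 and -0.54. KRT8 ran between 10.08 and 10.29 in NKX3.1, above all of CAD7-CAD9 and below all of CAD10-CAD12, with 0.72 ± 0.052 (limma adjusted p = 2.776e-11) and -0.24 ± 0.052 (limma adjusted p = 0.000459). With the profile taken off it differed by -0.26 (limma adjusted p = 0.299) and -1.59 (limma adjusted p = 2.367e-06).

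**Figure D5:**
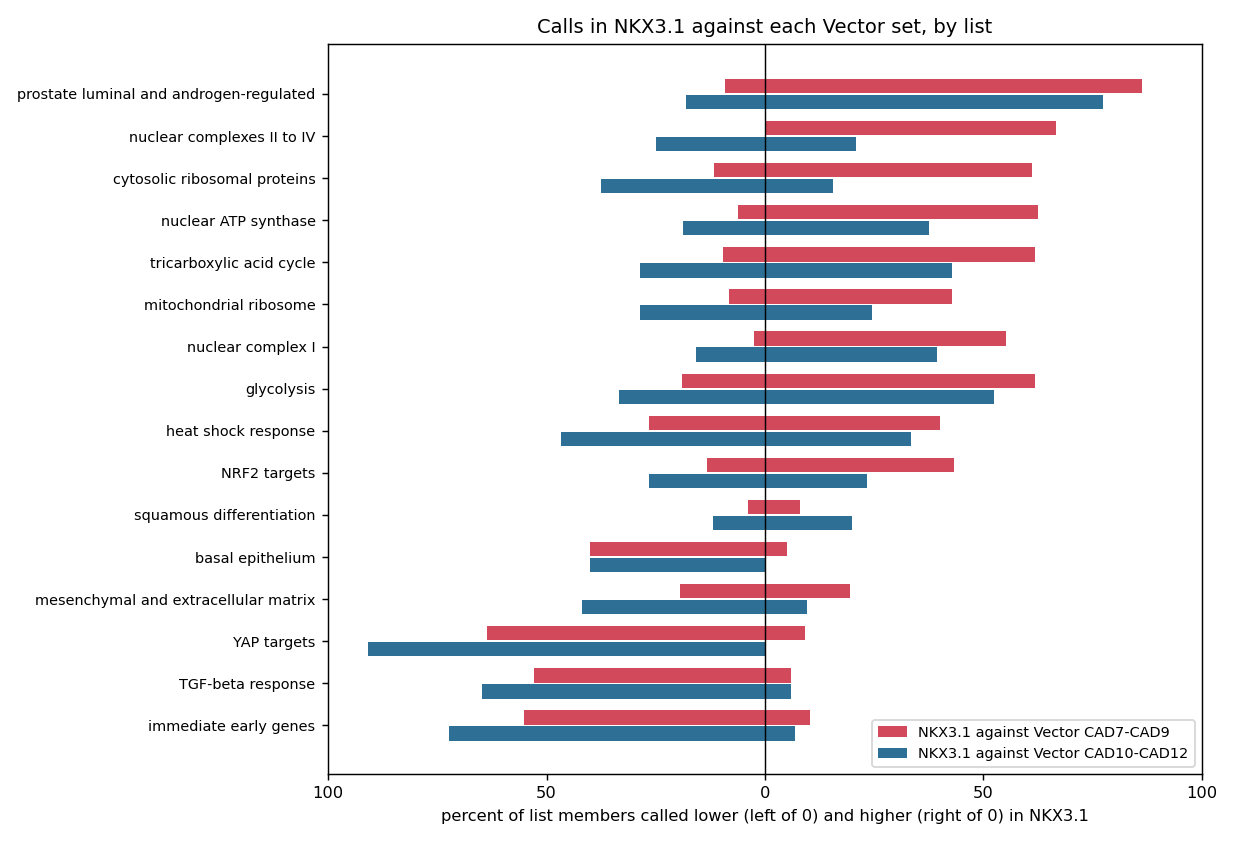
Percent of the tested members of 16 gene lists called higher (right of 0) and lower (left of 0) in NKX3.1 by limma at an adjusted p under 0.05, against Vector CAD7-CAD9 and against Vector CAD10-CAD12. Cytosolic ribosomal proteins have 47 higher and 9 lower of 77 against CAD7-CAD9 and 12 higher and 29 lower against CAD10-CAD12.

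Most luminal genes tested were called higher in NKX3.1 against either set. Of 22 members tested, 19 were higher and 2 lower in NKX3.1 against CAD7-CAD9, and 17 higher and 4 lower against CAD10-CAD12. Taking off the R52C profile left 15 luminal genes to test against each set, of which 7 were higher and none lower against CAD7-CAD9, and 8 higher and 5 lower against CAD10-CAD12. Of 20 basal genes 8 were lower and 1 was higher against CAD7-CAD9, and 8 were lower and none higher against CAD10-CAD12, beside 16.8% and 19.9% of all genes lower, and EGFR differed by -0.18 (limma adjusted p = 0.000609) against CAD7-CAD9 and -0.69 (limma adjusted p = 5.54e-13) against CAD10-CAD12. EGFR without the R52C profile differed by 0.06 (limma adjusted p = 0.476) and -0.46 (limma adjusted p = 2.895e-05), and of the basal genes 5 were higher and none lower against CAD7-CAD9, beside 3 higher and 14 lower against CAD10-CAD12.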

How the data were processed

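Libraries were made with the TruSeq kit after poly-A selection of the RNA and run on a HiSeq2000, per the labels' protocols. Per the submitters' processing notes the tools were CASAVA 1.8.2, TopHat, Cufflinks and DESeq, with no role given, and the builds GRCh37 and mm9, a mouse genome. The authors deposited log2 values, 1 table for 22 libraries; how they were normalized is not given in the sources used here. The 3473 of 56299 entries without a name were left out, and the row with the highest Vector mean was kept for each of 501 repeated symbols. Entries with a mean under 0 had an SD of 0.97, and the floor was set at 3. No 2 libraries held identical values.

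The members and lists were chosen with earlier results of these data known. The genes named were, of those with a regular symbol whose sets did not overlap, the 15 largest differences each way above the median level, and also the 4 largest of each of 39 lists and the 13 mtDNA-encoded genes; other members of marker lists are given as levels. Limma 3.58.1 (R 4.3.3) was fitted with a trend on the deposited log2 values, with 5 group means over 22 libraries (genes above 3 in at least 4) or 2 means over the NKX3.1 libraries, two-sided, adjusted by Benjamini-Hochberg, and called at 0.05. It was tested on simulated data. Where the R52C profile, the mean of CAD34-CAD36, was taken off, linear values under 1 were set to 1. Alternatives were other scalings and floors, single libraries left out and, added after seeing the data, the R52C profile taken off in the NKX3.1 comparisons. Some genes that the naming rule picks are not reported here.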

Additional observations from a re-analysis of the deposited data

Results flagged for a closer look

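Among 174 measures and genes compared over the 6 Vector libraries, 3 had 1 library standing apart from the other 5 by a large part of the whole range (Dixon's test at 95%). Chance flags about 1 in 20 groups that were not chosen on their values. Here 159 of the 166 genes had sets that did not overlap, most of them by the rule that named them. That choice leaves less room for 1 library apart from 5, so the count cannot be set against this rate. In each case the library was CAD10. Its share of mtDNA-encoded mRNA was 16.9%, against 15.03% to 15.7% in the other 5 libraries, a gap of 0.649 of the range. MT-ND5 stood at 17.22 in CAD10, a gap of 0.669 of the range, and CANX, the endoplasmic reticulum chaperone calnexin, at 14.35, a gap of 0.722 of the range.

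Of 159 named genes whose Vector sets did not overlap, 29 also did not overlap between the NKX3.1 libraries CAD25-CAD27 and CAD28-CAD30. These were 15 in the same direction as in Vector and 14 in the opposite one. Of all genes, 2793 of 19291 (14.5%) did not overlap in that NKX3.1 division, so nothing is read from the count of 29. The difference between the groups was not tested. Of the opposite ones, higher in Vector CAD7-CAD9, the squamous genes CRNN, PI3, SERPINB3, SPRR1A and TCHH differed by -0.22, -0.18, -0.23, -0.16 and -0.19 in NKX3.1. REC8, POLE2, RFC4 and DLGAP5 differed by -0.18, -0.15, -0.15 and -0.089 there, and were higher in Vector CAD7-CAD9 too. SMAD6, CYP51A1, ATP5D, TXNRD1 and HSP90AB1, lower in Vector CAD7-CAD9, differed by 0.30, 0.14, 0.17, 0.11 and 0.046 in NKX3.1.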

How the results depend on the processing

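Counts of genes standing apart between the Vector sets stayed within 1.5 times of 7031 under every scaling, floor and subtraction run, and were 8354 to 9191 with 1 library left out, where fewer values are compared. The number of lists with a median below 0 was 29 to 33 with 1 library left out. The difference in R52C-like share between the sets was -1.5 percentage points without CAD10 and 1.15 without CAD12, the lowest and highest values. Leaving out 1 library gave 7117 to 8168 calls for NKX3.1 against CAD7-CAD9 and 7401 to 8691 against CAD10-CAD12. With the R52C profile taken off these were 768 and 4414. Between the NKX3.1 libraries, limma called 8 genes after quantile normalization and 0 without a trend on expression, where 1427 had an unadjusted p under 0.05, and 7 to 309 with 1 library left out (11 without CAD30). Of named genes called in the main fit, KRT8 (-0.26), EGFR (0.062), EGR1 (0.092) and GAPDH (-0.11) changed sign against CAD7-CAD9 with the R52C profile taken off. Of genes not called there, 8 changed sign against CAD7-CAD9 and 1 against CAD10-CAD12 in this step. Against CAD10-CAD12, such genes also changed sign 1 time with medians set equal, 1 time after quantile normalization and 6 times over the runs with 1 library left out. In the NKX3.1 division the last 2 gave 1 and 15 sign changes. Between the sets, of the named genes that stood apart, MT-ND2 changed sign after quantile normalization (0.0090). Of the lists that stood apart, the neuroendocrine median changed sign with a floor of 0 (-0.22) and that of replication-dependent histones without CAD8 (0.011). Small negative list medians also turned positive when library medians were set equal and after quantile normalization: luminal (0.0019 and 0.0079), epithelial adhesion (0.0010 and 0.028), hypoxia (0.015 and 0.039) and nuclear-retained long RNAs (0.015 and 0.060, and 0.024 with a floor of 0). The MAGE list did so with medians set equal (0.0025) and the immune list after quantile normalization (0.0013). The luminal median was -0.52 with the R52C profile taken off, where 8 genes were above the floor. The cause of these changes was not tested. Of the 159 named genes that stood apart between the sets, 153 still did with libraries shifted to the same median and 149 after quantile normalization. No paired analysis was possible because the labels give no replicate numbers. Depth in reads is unknown, and the precision of low genes rests on the floor alone.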
